A study of Mus musculus with 14 samples.

Results

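The genes described here are 9 members of the Polycomb complexes, namely Ezh1, Ezh2, Eed, Suz12 and Jarid2 of Polycomb repressive complex PRC2, and Bmi1, Cbx2, Cbx7 and Cbx8 of the PRC1 complexes. They were chosen by name, and a site was assigned to a gene if it overlapped the gene body in mm10 or the 5 kb upstream of its 5′ end. This gave 34 sites of acetylated lysine 27 of histone H3 (H3K27ac) out of 122228. Each gene had sites, and none of the sites was shared between genes.

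The sites were obtained by chromatin immunoprecipitation followed by sequencing (ChIP-seq) in iMEF, a line of immortalised mouse embryo fibroblasts. All cells, treated or not, carried a deletion of exon 4 in both endogenous Ash2l alleles (floxed, removed by Cre-ER) and depended on a lentiviral construct encoding human ASH2L fused to FKBP12F36V. According to a figure legend of the study these were NG3 cells, a single clone, so that other clones are not represented. The fusion protein is degraded when the compound dTAG ties it to a ubiquitin ligase, and ASH2L itself is a core subunit of the KMT2 methyltransferases, which act on lysine 4 of histone H3. Of the 14 libraries, 12 were H3K27ac libraries, with 2 each for cells without dTAG and for cells harvested 30 min, 2 h, 4 h, 8 h or 16 h after its addition. The other 2 were input, chromatin without immunoprecipitation, from untreated cells and from cells treated for 16 h. The study describes the replicates as biological replicates, and the labels do not tell whether they were separate cultures.

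The sites formed 1 list over all 12 H3K27ac libraries, which gives the position of each site but no value for any library. Hence the values below have no replicate error, the read depth behind a site was unknown, and neither the effect of dTAG nor any change over time was analysed here. Each count, median and share below is a description of this list, and no test was run. The labelled cell type was compared with the sites at marker genes. All 7 fibroblast genes examined, among them Col1a1 and Vim, had a site in the window of 1 kb on either side of their transcription start site (TSS), with 454 to 2001 bp in sites. None of the 6 genes that mark epithelial, blood, endothelial or pluripotent cells had a site there, and their TSSs lay 3434 to 21840 bp from the nearest site.

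Polycomb complexes keep developmental genes silent. PRC2 methylates lysine 27 of histone H3, the same residue that carries the acetyl group of H3K27ac, so that a single histone tail cannot carry both marks. EZH2 or its paralogue EZH1 is the catalytic subunit of PRC2, EED and SUZ12 are required for its activity, and JARID2 is an accessory subunit that helps to recruit the complex. In canonical PRC1, a chromobox protein such as CBX2, CBX7 or CBX8 binds the methylated lysine, while a PCGF protein, for example BMI1 (PCGF4), pairs with a RING protein to ubiquitinate histone H2A. In fibroblasts these complexes are known for silencing the Ink4a/Arf locus, and Bmi1 and Cbx7 for allowing cells to bypass senescence. H3K27ac marks active promoters and enhancers. The sites described here are those at the genes that encode Polycomb proteins, and whether these genes are themselves targets of the complexes was not examined.

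Here Ezh2, Eed, Suz12, Jarid2 and Bmi1 were taken as widely expressed subunits, and Ezh1, Cbx2, Cbx7 and Cbx8 as alternative paralogues. The grouping rests on general knowledge, and no expression was measured. It is not clear cut, for example because Ezh1 is also found in many adult tissues, and Bmi1 is itself a member of a family of paralogues. The other genes were not checked against expression either.

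The promoter sequences of 6 of the genes are given because they show where the sites stopped in relation to the start of transcription. They are from RefSeq (GRCm38.p6), run 5′ to 3′ on the strand of the gene, and comprise 250 bases before and 50 bases from the RefSeq start. Capitals mark bases inside an H3K27ac site and lower case marks bases outside. At Bmi1 (chr2:18676768-18677067, + strand) all 300 bases lay in a site. At Ezh2 (chr6:47594981-47595280, - strand) and Suz12 (chr11:79992856-79993155, + strand) a lower-case gap preceded the start. At Cbx8 (chr11:119040864-119041163, - strand) the gap extended over most of the sequence, and at Ezh1 (chr11:101226414-101226713, - strand) and Cbx7 (chr15:79932597-79932896, - strand) no base lay in a site.
Bmi1: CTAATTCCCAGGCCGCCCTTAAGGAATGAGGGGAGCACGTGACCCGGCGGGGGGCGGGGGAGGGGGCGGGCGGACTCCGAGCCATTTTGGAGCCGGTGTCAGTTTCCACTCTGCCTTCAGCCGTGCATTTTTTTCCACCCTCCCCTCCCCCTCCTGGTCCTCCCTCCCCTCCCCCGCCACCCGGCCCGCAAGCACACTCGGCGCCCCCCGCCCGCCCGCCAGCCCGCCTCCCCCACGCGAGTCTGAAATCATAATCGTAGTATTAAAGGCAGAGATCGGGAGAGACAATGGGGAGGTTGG
Ezh2: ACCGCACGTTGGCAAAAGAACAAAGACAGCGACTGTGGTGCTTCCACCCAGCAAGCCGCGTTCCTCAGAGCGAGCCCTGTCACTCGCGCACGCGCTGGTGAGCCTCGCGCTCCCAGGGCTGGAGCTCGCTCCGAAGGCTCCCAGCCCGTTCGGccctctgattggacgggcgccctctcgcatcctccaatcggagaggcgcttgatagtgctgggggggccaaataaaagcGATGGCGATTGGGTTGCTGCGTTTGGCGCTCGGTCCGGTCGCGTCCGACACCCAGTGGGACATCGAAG
Suz12: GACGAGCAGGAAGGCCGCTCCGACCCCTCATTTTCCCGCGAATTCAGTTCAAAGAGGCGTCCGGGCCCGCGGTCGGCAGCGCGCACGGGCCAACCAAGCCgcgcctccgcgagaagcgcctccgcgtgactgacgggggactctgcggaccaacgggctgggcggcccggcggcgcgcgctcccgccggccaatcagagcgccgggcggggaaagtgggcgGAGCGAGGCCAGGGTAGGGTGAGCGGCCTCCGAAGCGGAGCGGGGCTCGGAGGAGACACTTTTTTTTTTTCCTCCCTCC
Cbx8: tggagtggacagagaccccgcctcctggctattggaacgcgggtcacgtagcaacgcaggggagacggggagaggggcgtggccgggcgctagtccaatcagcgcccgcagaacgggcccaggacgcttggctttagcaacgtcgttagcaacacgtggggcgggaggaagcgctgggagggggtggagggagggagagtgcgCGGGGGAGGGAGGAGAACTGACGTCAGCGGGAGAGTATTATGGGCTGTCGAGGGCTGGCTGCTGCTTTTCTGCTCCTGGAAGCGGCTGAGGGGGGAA
Ezh1: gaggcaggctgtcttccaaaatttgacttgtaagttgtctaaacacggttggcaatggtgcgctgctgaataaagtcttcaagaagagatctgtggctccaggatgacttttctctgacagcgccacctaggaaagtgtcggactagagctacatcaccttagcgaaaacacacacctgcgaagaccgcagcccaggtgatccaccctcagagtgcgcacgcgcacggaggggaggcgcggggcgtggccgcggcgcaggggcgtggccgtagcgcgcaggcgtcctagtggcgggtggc
Cbx7: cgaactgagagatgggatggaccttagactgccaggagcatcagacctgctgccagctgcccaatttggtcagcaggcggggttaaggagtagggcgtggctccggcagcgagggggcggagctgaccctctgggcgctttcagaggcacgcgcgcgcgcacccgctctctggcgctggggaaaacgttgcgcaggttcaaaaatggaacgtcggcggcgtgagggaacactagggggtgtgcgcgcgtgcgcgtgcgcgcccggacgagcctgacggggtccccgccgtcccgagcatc

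RefSeq promoters were found for 8 of the 9 genes, with 2 promoters for Jarid2, but not for Cbx2. The share of the 300 bases inside sites was 100% at Eed, Bmi1 and the Jarid2 promoter at the TSS used below, 73.7% at Ezh2, 59.7% at Suz12 and 58.3% at the upstream Jarid2 promoter. By comparison, it was 32.3% at Cbx8 and 0% at Ezh1 and Cbx7. The RefSeq start was up to 56 bp from the TSS used below, which is the first base of the principal protein-coding transcript in GENCODE, except at the upstream Jarid2 promoter, whose start lay 497 bp upstream of it.

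The promoter window comprised 1 kb on either side of the TSS, 2001 bp in all, and promoter cover is the number of these bp inside sites. A site was found in the window of 8 of the 9 genes, all except Cbx7. The same was true of 52.5% of the 21670 protein-coding genes on the autosomes and the X chromosome (95% Wilson interval 51.9 to 53.2%, which covers counting error only). The TSS itself lay inside a site at 5 of the 9 genes, compared to 38.5% of protein-coding genes and 60.2% of those with a CpG island in the window, which all 9 genes had. These 5 were the widely expressed subunits. However, with the annotated 5′ end of each gene as TSS it was 4 genes, without Jarid2, and after merging of sites less than 1 kb apart it was 7 genes, with Cbx2 and Cbx8, so that the split was lost in both settings. At least 1 site anywhere in the gene body or the upstream 5 kb was present at all 9 genes and at 63.9% of protein-coding genes.

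**Figure D1:**
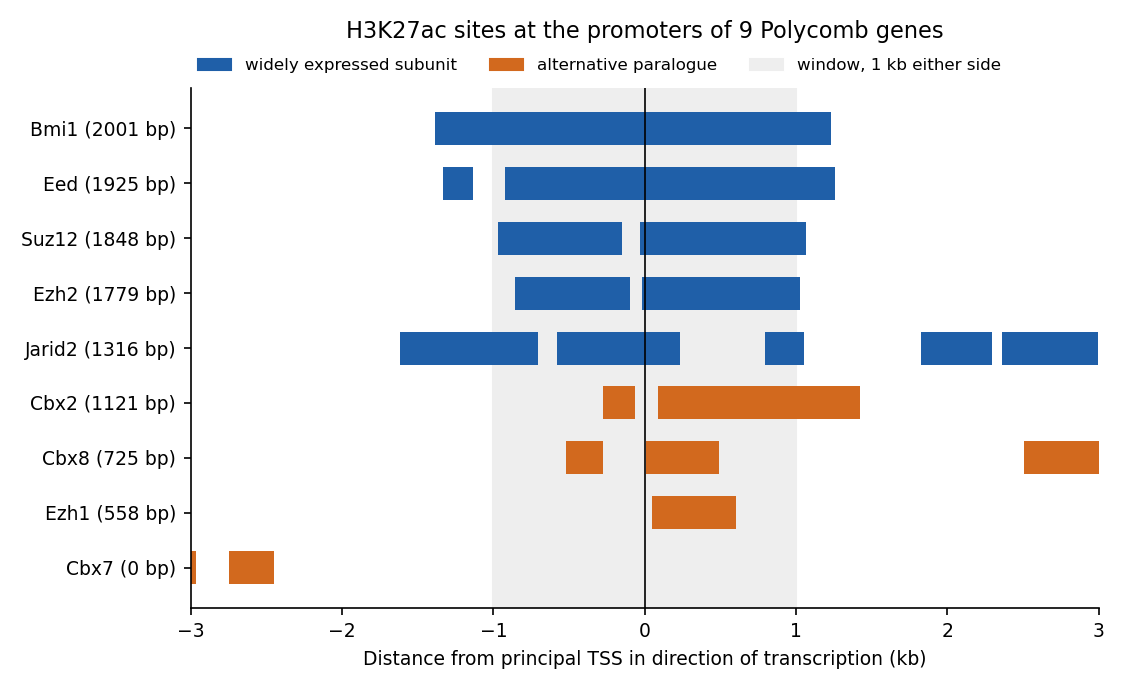
H3K27ac sites (bars) within 3 kb of the principal TSS of each gene, drawn to scale in the direction of transcription, with the promoter cover in bp beside each name and the promoter window shaded. At Bmi1, Eed, Suz12, Ezh2 and Jarid2 a site runs across the TSS at 0, whereas the sites at Cbx2 and Cbx8 leave it free on both sides, the site at Ezh1 begins 47 bp downstream, and the window of Cbx7 is empty.

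The catalytic subunits of PRC2 differed in their promoters. Ezh2 (chr6:47530139-47595341, - strand) had a promoter cover of 1779 bp, more than 91.6% of protein-coding genes. A site of 760 bp ended 98 bp upstream of the TSS, and a site of 1048 bp ran from 18 bp upstream to 1029 bp downstream, over the 5′ untranslated region (UTR) of exon 1 into intron 1. The gap between them measured 79 bp, and these are the lower-case bases in the Ezh2 sequence above. A coding transcript that starts 311 bp further upstream also had its TSS inside a site, with a cover of 1468 bp. Coding transcripts that start 17370 and 54295 bp downstream had no site within 1 kb. Ezh2 contained only 2 other sites, 200 bp in intron 3 and 274 bp in intron 17. Both were narrow, as the median width of all sites was 401 bp.

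Ezh1 (chr11:101191115-101226463, - strand) had a promoter cover of 558 bp, which exceeded that of 52.0% of protein-coding genes. All of it came from 1 site that started 47 bp downstream of the TSS and ended at 604 bp, with 8 bp in the 5′ UTR of exon 1 and 550 bp in intron 1. None of the 1000 bp upstream of the TSS was in a site. Further coding transcripts of Ezh1 start 13 bp upstream and 24 bp downstream, and they had the same cover of 558 bp. Thus Ezh2 had 1221 bp more cover than Ezh1, of which 778 bp lay upstream of the TSS. The only other site at Ezh1 was 2006 bp wide and lay at the opposite end of the gene, with 86 bp in the 3′ UTR and 1920 bp beyond the gene end. It also overlapped the 3′ end of the neighbouring gene Cntnap1, so that it cannot be attributed to Ezh1 from its position.

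Eed and Suz12 encode the subunits without which the PRC2 enzyme is inactive. Both had their TSS inside a broad site. At Eed (chr7:89954654-89980983, - strand) a single site of 2185 bp, wider than 96.5% of all sites, ran from 924 bp upstream to 1260 bp downstream and gave a cover of 1925 bp. A further 200 bp site lay 1132 bp upstream. The non-coding gene E230029C05Rik starts 260 bp downstream of the Eed TSS on the opposite strand and shares both sites, and the 2001 bp around its own 5′ end lay in sites throughout. The contributions of these neighbours to the site cannot be told apart. The third start of coding Eed transcripts, 16142 bp downstream, had no site within 1 kb.

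At Suz12 (chr11:79993106-80034123, + strand) the cover was 1848 bp. It comprised a site of 818 bp that ended 151 bp upstream of the TSS and a site of 1094 bp that started 29 bp upstream and covered exon 1 with its coding sequence and part of intron 1. The 121 bp between them are lower case in the sequence above. No further site was found along the 41018 bp of Suz12, for which a single coding TSS is annotated.

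Jarid2 (chr13:44729474-44921643, + strand) had the most sites, 13, and at 192170 bp it was the longest of the genes. Its promoter cover of 1316 bp was the lowest of the widely expressed subunits, but still above 73.7% of protein-coding genes. A site of 818 bp ran from 582 bp upstream to 235 bp downstream of the TSS, and a site of 912 bp lay 125 bp further upstream. Jarid2 has 8 coding TSSs. At 6 of them the TSS lay inside a site, and the TSS 497 bp upstream of the principal one had the highest cover, 1608 bp. Of its 13 sites, 10 lay outside the promoter window, all within introns. Intron 1 held 6 of these, and the others were in introns 2, 9 and 12. The 5 sites nearest to the TSS were found between 1619 bp upstream and 2994 bp downstream, followed by 33954 bp without a site and then by 4 sites of 238 to 412 bp in a stretch from 36949 to 49834 bp. A 220 bp site in intron 2 lay 567 bp upstream of an internal coding TSS. The 3 most distal sites, of 218 to 427 bp, lay in introns 9 and 12, at 67287, 67807 and 72063 bp from the nearest coding TSS.

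Bmi1 (chr2:18677018-18686629, + strand) was the only one of the 9 genes whose window lay in sites throughout, 2001 of 2001 bp, which was above 97.1% of protein-coding genes. The site was 2619 bp wide and ran from 1386 bp upstream to 1232 bp downstream without a gap. It overlapped the 3′ end of Commd3, which lies upstream of Bmi1 on the same strand. A second site of 1674 bp, between 5230 and 3557 bp upstream of the Bmi1 TSS, covered the TSS of Commd3 and was assigned to Bmi1 only through the upstream 5 kb. The third site, 810 bp in intron 1, contained the internal coding TSSs 3976 and 4089 bp downstream. Thus all 6 coding TSSs of Bmi1 had a site within 1 kb, and 4 lay inside one. Sites took up 33.3% of the assigned range of Bmi1, the highest share of the 9 genes, although the sites of 1674 and 2619 bp, which made up most of it, also overlapped Commd3.

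**Figure D2:**
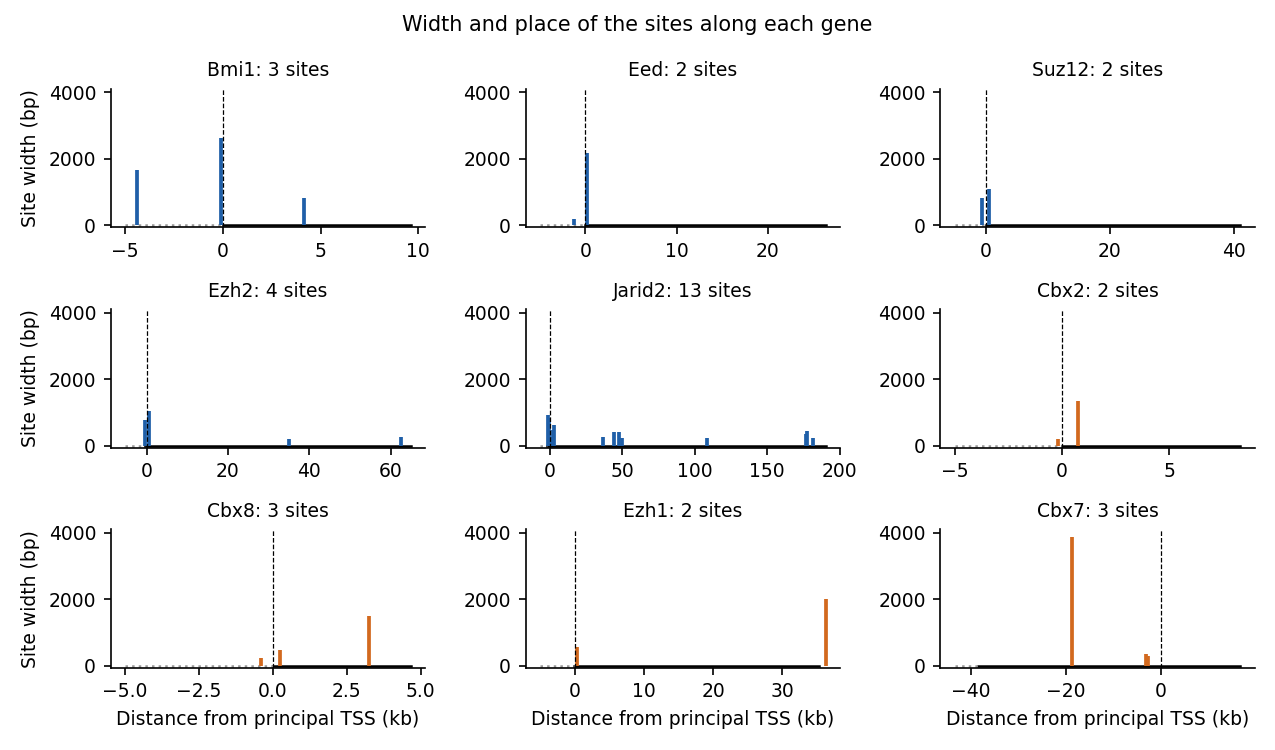
Width in bp (height of each line) and place (distance of the site centre from the principal TSS, in kb) of the 34 sites, with a panel for each gene and a dashed line at the TSS. Blue marks widely expressed subunits and orange alternative paralogues, and each panel has its own distance axis. The widest sites of Eed, Suz12, Ezh2, Bmi1 and Cbx2 stand at or next to the TSS, while those of Ezh1, Cbx7 and Cbx8 stand away from it.

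The chromobox genes encode the subunits of canonical PRC1 that read methylated lysine 27. At none of the 3 was the principal TSS inside a site, although other annotated starts of Cbx2 and Cbx8 were, including the RefSeq start of Cbx8 in the sequence above. Cbx2 (chr11:119022962-119031270, + strand) had a cover of 1121 bp, more than 66.5% of protein-coding genes. It comprised 211 bp upstream and 910 bp downstream of the TSS. The TSS lay in a gap of 156 bp, from 65 bp upstream to 90 bp downstream, between a 211 bp site and a 1331 bp site that reached from exon 1 to exon 3. Cbx2 had no other site.

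Cbx8 (chr11:119036305-119040969, - strand) likewise had its TSS in a gap, here of 281 bp, from 272 bp upstream to 8 bp downstream. The flanking sites measured 245 bp upstream and 480 bp downstream and gave a cover of 725 bp, above 55.1% of protein-coding genes. Of protein-coding genes, 7.64% had sites on both sides of the TSS in the window without one across it, the class of Cbx2 and Cbx8, and among those with a CpG island it was 12.5%. Of the other Polycomb genes examined below, Rbbp7, Rybp and Kdm6a were also in this class, with covers of 1735, 1452 and 1817 bp. Without the narrowest 25% of sites, Cbx2 and Cbx8 kept only the site downstream of the TSS. The widest site of Cbx8, 1510 bp, lay wholly in the 3′ UTR of exon 5, from 2507 to 4016 bp downstream of the TSS, and overlapped a CpG island. Together the sites took up 23.1% of the assigned range of Cbx8, second only to Bmi1 among the 9 genes.

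Cbx7 (chr15:79915807-79971119, - strand) stood apart from the other members, as none of its 7 coding TSSs had a site within 1 kb. From the principal TSS to the 3′ end of the gene no site was found. All 3 sites lay upstream of this TSS, in the part of the gene that, of the coding transcripts, only those starting 38479 or 38480 bp upstream contain. Sites of 303 and 369 bp ended 2446 and 2967 bp upstream of the principal TSS. The third was 3867 bp wide, between 20563 and 16697 bp upstream. It was the widest of all 34 sites and wider than 99.2% of the whole list, with 15437 bp between it and the nearest annotated TSS. The transcripts that start 38480 bp upstream were 17917 bp away from the nearest site. Among protein-coding genes 47.5% had no site in the window of the principal TSS, as Cbx7. With the best covered coding TSS of each gene, 54.9% of protein-coding genes had a site in the window, and Cbx7 still had none.

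The cover of the widely expressed subunits ranged from 1316 to 2001 bp with a median of 1848 bp, or 92.4% of the window. That of the alternative paralogues ranged from 0 to 1121 bp with a median of 641.5 bp, or 32.1%. The ranges did not overlap. However, the genes were few, they were grouped with earlier results of these data known, and genes are not replicates. The median over all protein-coding genes was 405.5 bp and over those with a site in the window 1317 bp, between the medians of the 2 groups. On the upstream side of the TSS, the widely expressed subunits had 778 to 1000 bp in sites and the alternative paralogues 0 to 245 bp. The sites behind the upstream values of Eed and Bmi1 also overlapped the neighbouring genes E230029C05Rik and Commd3, respectively. On the downstream side Cbx2, with 910 bp, exceeded Jarid2, with 441 bp, so that the ranges overlapped there. The separation of the ranges depended on how TSS and groups were set. When the annotated 5′ end of each gene was used as TSS, the lowest cover among widely expressed subunits was 823 bp and no longer exceeded the 1121 bp of Cbx2. It was also lost if Ezh1 was counted as widely expressed or Bmi1 as an alternative paralogue.

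**Figure D3:**
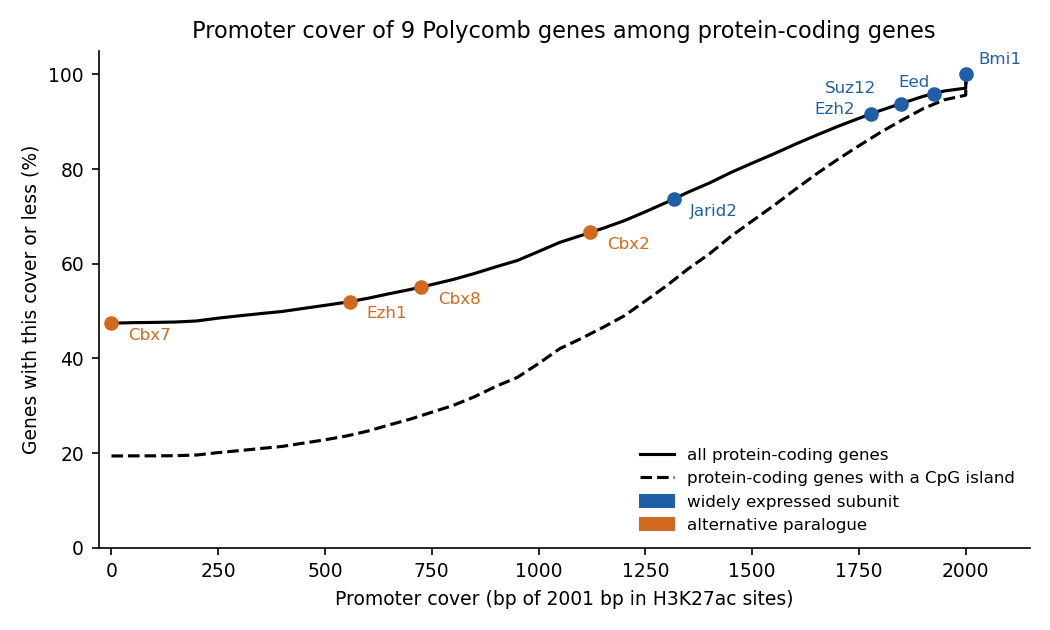
Cumulative share of genes (%) against promoter cover (bp of 2001 bp) for all 21670 protein-coding genes (solid line) and for the 11915 with a CpG island in the window (dashed line). Points on the solid line are the 9 Polycomb genes, with the alternative paralogues (orange, 0 to 1121 bp) to the left of the widely expressed subunits (blue, 1316 to 2001 bp).

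CpG islands (CGIs), stretches rich in the CpG dinucleotide at many promoters, are themselves frequent places of H3K27ac. All 9 genes had a CGI in the promoter window, including Cbx7, compared to 55.0% of protein-coding genes. For the protein-coding genes with such a CGI, the median cover was 1215 bp and the share with a site in the window was 80.6%. Set beside these, the cover of Bmi1, Eed, Suz12 and Ezh2 still exceeded that of 86.5 to 95.6% of genes. Jarid2 was near the middle, above 56.5%, and Cbx2, Cbx8 and Ezh1 were above 45.0%, 27.9% and 23.7%, respectively. Cbx7 belonged to the 19.4% of CGI genes, 2312 of 11915, without a site.

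The share of the CGI inside sites was 100% at Eed and Bmi1, 94.6% at Ezh2, 92.0% at Jarid2 and 91.2% at Suz12. At Cbx2 it was 81.3%, and at Ezh1, whose CGI was 659 bp long, it was 77.7%. At Cbx8 it was 47.5%, and at Cbx7, which had 2 CGIs with 625 bp in all and 60 CpGs, it was 0%. The CGI of Bmi1 was the longest, with 1583 bp and 212 CpGs. Of the 14 sites in promoter windows 13 overlapped a CGI, compared to 5 of the 20 sites outside. Every member had a CGI in its window, which by itself favours overlap there. The corresponding shares over all sites inside and outside the windows of protein-coding genes were not computed. Neither count can therefore be called high or low. Whether CpG content accounts for the differences in cover was not tested.

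In width the sites of the Polycomb genes were near those of other genes. Sites in their promoter windows had a median width of 818 bp (n = 14, 211 to 2619 bp), compared to 853 bp for all sites in windows of protein-coding genes. Sites outside the windows had a median width of 388 bp (n = 20, 200 to 3867 bp), compared to 371 bp for all such sites. The GC content of the sites in windows had a median of 64.8%, above the 56.2% of all such sites. Of the 20 sites outside, 13 lay wholly in introns, 5 upstream of the principal TSS and 2 in or at a 3′ UTR. None touched coding sequence of the member's own principal transcript, and coding sequence of neighbouring genes was not examined. Besides Commd3 and E230029C05Rik, the annotated genes that overlap the range of a member are Gm26625 and Gm44282 at Ezh2, Gm45120 at Eed, Gm26563 at Suz12, Gm22213 at Jarid2 and Apobec3 at Cbx7, and none of these had a site within 1 kb of its 5′ end.

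The density of sites along the genes had another order than the cover of the promoters. Cbx8, Bmi1 and Cbx2, the shortest genes, had 3.10, 2.05 and 1.5 sites per 10 kb of gene body and upstream part, respectively. For the other 6 genes the density was 0.435 to 0.659, compared to a median of 0.477 over protein-coding genes. Jarid2, with 13 sites, was within this range at 0.659, and Suz12, with a broad promoter site, was lowest at 0.435. Ezh1 and Cbx7 were alike at 0.496 and 0.497. The share of the range inside sites was 1.60% at Ezh1, 2.85% at Jarid2, 3.25% at Ezh2, 4.15% at Suz12, 7.53% at Cbx7 and 7.61% at Eed, and 11.6% at Cbx2, with a median of 2.88% over protein-coding genes. Over those with a CGI in the window the median was 6.25%, above the shares of Ezh1, Jarid2, Ezh2 and Suz12.

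To place these genes within the pathway, 31 other Polycomb genes were examined, comprising further subunits of PRC2 and PRC1, the deubiquitinase PR-DUB and the demethylases that act on lysine 27. All 31 had a site in the promoter window, so that Cbx7 was the only gene without one among these and the 9 genes. Their median cover was 1532 bp, and at 21 of 31 (67.7%) the TSS lay inside a site. However, 30 of the 31 had a CGI in the window. Of all protein-coding genes with such a CGI, 80.6% had a site in the window and 60.2% had the TSS inside one. The median cover of those genes was 1215 bp. In PRC2, cover was lowest at Epop, an accessory subunit, with 209 bp, and highest at Aebp2, a cofactor of the complex, with 2001 bp. In PRC1, it was lowest at Phc2, a polyhomeotic protein, with 244 bp, and highest at Pcgf2, the closest paralogue of Bmi1, with 2001 bp. However, another coding TSS of Phc2 had a cover of 2001 bp, so that the low value is that of its principal TSS. In PR-DUB, Asxl3 had 797 bp and Asxl1 1683 bp, and of the demethylases Kdm6a had 1817 bp and Kdm6b 2001 bp. The sites at Epop and at the principal TSS of Phc2 belonged to the narrowest 25% of all sites, as did the upstream sites of Cbx2 and Cbx8.

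Promoter cover also differed within families of paralogues. The families beyond the 9 genes are named after their values were seen. Among chromobox genes, Cbx6 had 1428 bp and exceeded Cbx2, Cbx8 and Cbx7. Among the Pcgf genes, which encode alternative partners of the RING protein, Bmi1 and Pcgf2 had 2001 bp each, Pcgf1 1657 bp, Pcgf5 1532 bp, Pcgf3 977 bp and Pcgf6 730 bp. Thus in this family alternative subunits covered a range of 1271 bp, similar to the 1221 bp between Ezh1 and Ezh2. The range was 1329 bp in the Phc family, 886 bp among Asxl genes, 749 bp among Phf1, Mtf2 and Phf19, 518 bp between Rybp and Yaf2 and 312 bp between Bcor and Bcorl1. It was smallest for the histone binding subunits Rbbp4 and Rbbp7, with 60 bp, and for the catalytic RING subunits Ring1 and Rnf2, with 37 bp. The Phc range held only for the principal TSSs. At the best covered coding TSS, Phc1 had 1584 bp, Phc2 2001 bp and Phc3 1575 bp. The families comprised 2 to 6 genes, and a range can only widen with more genes.

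Some of the chromobox genes lie on the same chromosome. Cbx2 and Cbx8 lie within 18008 bp of chromosome 11 (chr11:119022962-119040969), in which sites took up 18.4% of the sequence. The 5034 bp between the 3′ ends of Cbx2 and Cbx8 had no site, so the sites at these genes were separate. The broadest site of the region, 1510 bp, was the one in the 3′ UTR of Cbx8. On chromosome 15, Cbx6 and Cbx7 lie within 147224 bp, in which 7 sites took up 5.14%. A pair of sites of 1359 and 815 bp lay at the 5′ end of Cbx6, whereas the broadest, 3867 bp, was the one inside Cbx7 and away from its starts.

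**Figure D4:**
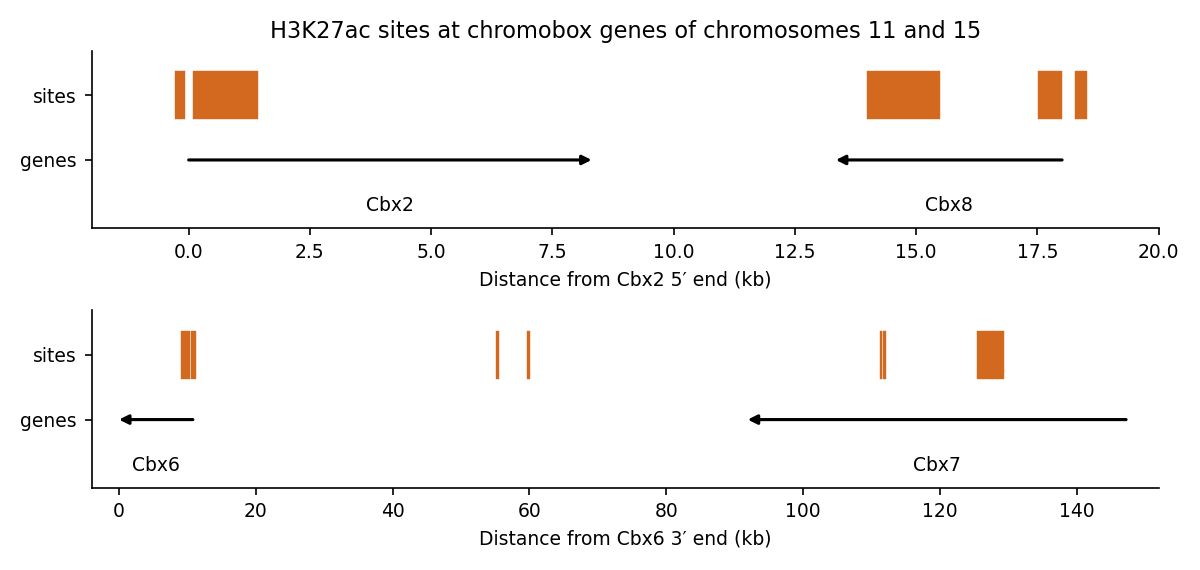
Sites (orange blocks) and genes (arrows pointing in the direction of transcription) in the neighbourhoods of Cbx2 and Cbx8 (top) and of Cbx6 and Cbx7 (bottom), by distance in kb. Sites lie at the 5′ ends of Cbx2, Cbx8 and Cbx6, but the broadest site of the lower panel lies within Cbx7, away from both ends of the gene.

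Finally, the promoter sequences were examined for what they share. The number of CpGs in the 300 bases was 41 at Suz12, 33 at Cbx7, 31 at Ezh2, 24 at Cbx8 and the upstream Jarid2 promoter, 23 at Ezh1, Bmi1 and the other Jarid2 promoter, and 17 at Eed, compared to a median of 14 over 20054 protein-coding promoters. Hence Cbx7, without a site, had more CpGs than Bmi1 and Eed, whose sequences lay wholly in sites. Exact matches to short motifs were counted on both strands. The 9 promoters belong to 8 genes, with Jarid2 counted for both of its promoters and Cbx2 absent. CCAAT, the word bound by NF-Y, was found in 7 of 9 promoters, both of Jarid2 included, and in 37.9% of all. There were 3 matches at Ezh2 and 2 at Cbx8. Shares over promoters with a CGI alone were not computed. The SP/KLF word GGGCGGGG was found in 3 of 9, at Suz12, the upstream Jarid2 promoter and at Bmi1, which had 2 matches,, and in 24.5% of all. Of the E2F words TTTCGCGC and TTTGGCGC, 1 match was found, TTTGGCGC at Ezh2 between 3 and 10 bp downstream of the TSS, and 1.06% of all promoters held such a word. It lies in the capitals that follow the gap in the Ezh2 sequence, so within the site. The words CCGGAAG (ETS), GCATGCGC (NRF1) and AAGATGGCG (YY1) were found in 0 of 9 promoters, and in 11.9%, 3.65% and 1.91% of all. In these promoters no match overlapped a match to another word.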

How the data were processed

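H3K27ac ChIP-seq comprised 12 libraries with 2 input libraries. As described in the methods, the authors trimmed reads with Trim Galore, aligned them to mm10 with BWA, filtered them as recommended by ENCODE, pooled the replicates of a group (Picard) and identified narrow peaks with MACS. The deposited values were positions in base pairs of sites joined over all samples. Threshold, tool versions and way of joining are not given in the sources used here. A joined site can be wider than a peak of any single sample, and gaps depend on the threshold.

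Starts were read as counted from 0, since the narrowest sites then measured exactly 200 bp, and are printed counted from 1. An overlap of 1 bp was sufficient. Genes were from GENCODE M21, an earlier release than that of the authors. The principal transcript was that with the lowest APPRIS principal level, then the basic tag, then the greatest length. CGIs were called from the genome sequence (at least 200 bp, 50% GC, observed to expected CpG 0.6). Python 3.11.15, numpy 2.4.6, scipy 1.17.1, numba 0.67.0 and matplotlib 3.10.9 were used, and the procedures were tested on simulated data.

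The members, groups and gene lists were chosen with earlier results of these data known. All 9 members are named, other Polycomb genes if lowest or highest in their group or without a promoter site, and neighbours if they overlap the range of a member or share its site. Genes named within families of paralogues were added after their values were seen. Alternative windows, TSSs, site widths, merging and groupings were tried. A gene of the list of other Polycomb genes is not reported here.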

Additional observations from a re-analysis of the deposited data

How the results depend on the processing

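Over 16 results, 72 alternatives were run, of which 56 changed a value by no more than the margin set. The margin was 1.5-fold, or the 95% Wilson interval for the share of protein-coding genes. It counted 4 or 7 genes with the TSS inside a site as unchanged from 5, although the split was lost there. A direction was followed only for the medians of the 2 groups. In 8 of 8 settings the median cover of the widely expressed subunits exceeded that of the alternative paralogues, and in 5 of 8 every widely expressed gene exceeded every alternative paralogue. With a window of 2 kb on either side, the median share of the window in sites was 54.1% for widely expressed subunits and 16.0% for alternative paralogues, and with 0.5 kb the latter was 53.7%. The share of protein-coding genes with a promoter site was 51.7% with 0.5 kb, 54.1% with 2 kb, 54.9% with the best covered coding TSS and 51.6% without the narrowest 25% of sites. Sites per 10 kb fell to 0.319 at Eed, 0.406 at Jarid2 and 0.751 at Cbx2 both without the narrowest sites and after merging sites less than 1 kb apart. They were 0.217 at Suz12 after merging, and 0.38 at Eed and 0.244 at Suz12 without the upstream part. Fewer counted sites account for these falls by construction. A shorter range by itself raises the density, and Cbx8 had 4.29 without the upstream part. The lowered values of Eed and Jarid2 were below the median of 0.477 over protein-coding genes, which was not recomputed. No paired analysis was possible because values per replicate were not part of the deposited positions. Depth was unknown, so that Cbx7 can be called a promoter without a listed site, not one without H3K27ac.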
